A study of Mus musculus with 6 samples.

Results

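The miRNAs described here are known from pluripotent cells and from the male germ line, and were measured in a tissue where they are not expected, the adult prefrontal cortex of the mouse. They were found by name among the assays of the raw table, ignoring letter case, species prefix, arm mark and a trailing letter, so that an assay for miR-465 counts with miR-465a, miR-465b and miR-465c. Of 33 listed miRNAs, 31 had at least 1 assay (miR-888 and miR-890 had none under their names), and they gave 65 of the 750 miRNA assays of the panel. Of these assays, 49 were designed for mouse, 11 for rat and 5 for human, and 4 matched only because the trailing letter was also ignored in the list. The mice were 5 months old and male, 3 with the genotype label BTBR T+ Itpr3tf/J and 3 wild-type C57BL/6J controls, without drug treatment, and each animal gave 1 RNA sample of whole prefrontal cortex. The labels give C57BL/6J as the strain background of both groups, while BTBR is an inbred strain of its own often studied for autism-like behaviour. Each miRNA was measured once per sample with a TaqMan OpenArray rodent panel, a real-time PCR assay read as a cycle threshold, the cycle at which the signal crosses a set level. A higher threshold stands for less RNA, 1 cycle is close to a doubling, and a value of 40 was read as undetermined. Here an assay was "read" in a sample when its raw threshold was at least 10 and under 40 cycles.

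MicroRNAs are short RNAs that pair with messenger RNAs mainly through bases 2 to 8, the seed, and lower their translation and stability. The miR-290 to miR-295 cluster is the main miRNA cluster of mouse embryonic stem cells, and the miR-302 and miR-367 cluster marks pluripotent cells of the epiblast; both are switched off as cells differentiate. The X-linked group, which runs from miR-743 to miR-465 and has a separate block with miR-201, miR-547 and miR-509, evolves fast and is known mainly from testis.

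The sequences below show what the pluripotency miRNAs share, with the seed in capitals; they are RefSeq mouse sequences on the build GRCm38.p6, written 5′ to 3′.
mmu-miR-302b-3p (chr3:127545275-127545297, plus strand): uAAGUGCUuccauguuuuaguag
mmu-miR-302d-3p (chr3:127545665-127545687, plus strand): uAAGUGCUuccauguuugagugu
mmu-miR-291a-3p (chr7:3218968-3218989, plus strand): aAAGUGCUuccacuuugugugc
mmu-miR-294-3p (chr7:3220691-3220712, plus strand): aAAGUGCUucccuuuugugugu
mmu-miR-295-3p (chr7:3220815-3220837, plus strand): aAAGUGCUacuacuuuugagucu
These 5 mature miRNAs have the same seed, AAGUGCU, from 2 clusters on different chromosomes. The letters AAGUGC at bases 2 to 7 were present in 7 of 66 mature names of the listed miRNAs in the RefSeq table used here. Of these, 5 came from the miR-290 to miR-295 cluster, 2 from the miR-302 and miR-367 cluster and 0 from the X-linked group. Among all 1679 mature mouse names in that table, 8 had these letters. It lacks the 3p arms of miR-302a and miR-292a, so neither arm could be checked for the shared seed.

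A second set is shown because its members are the relatives whose seed holds the same letters moved by a base. The miR-17 family is made in many tissues, brain included.
mmu-miR-17-5p (chr14:115043684-115043706, plus strand): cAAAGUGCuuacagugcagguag
mmu-miR-20a-5p (chr14:115044183-115044205, plus strand): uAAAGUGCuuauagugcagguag

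The X-linked sequences below are those of miR-547 and miR-465b-5p, whose assays were read, with the near-identical miR-465c-5p and miR-465a-5p for comparison. The assay name mmu-miR-547 carries no arm, so both arms are given, and 1 copy is given for miR-465b and miR-465c, whose genes are duplicated.
mmu-miR-547-3p (chrX:67988383-67988403, minus strand): cUUGGUACaucuuugagugag
mmu-miR-547-5p (chrX:67988420-67988440, minus strand): cACUUGAGgauguaccaccca
mmu-miR-465b-5p (chrX:66835811-66835832, minus strand): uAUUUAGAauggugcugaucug
mmu-miR-465c-5p (chrX:66832566-66832587, minus strand): uAUUUAGAauggcgcugaucug
mmu-miR-465a-5p (chrX:66839099-66839121, minus strand): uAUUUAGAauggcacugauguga
Neither seed of miR-547 occurred in another mature name of the table. The hairpin of miR-547 lies 212 bases from that of miR-201 and 21653 bases from that of miR-509 on the same strand, and 0 other RefSeq genes overlap it. The miR-465b-5p and miR-465c-5p sequences differ by U13C alone, counted from 1 at the 5′ end, and miR-465a-5p differs from miR-465b-5p by U13C, G14A and C20G over the 22 bases compared.

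Almost nothing was read from these assays. Of 65, 58 were undetermined in all 6 samples (89.2%, against 38.4% of all 750 assays), and 7 were read in at least 1 sample (10.8%, against 61.6%). A single assay, mmu-miR-547, was read in all 6 samples (1.54% of the 65, against 31.6% of the 750), 6 were read in 1 or 2 samples (9.23%, against 16.3%), and 0 in 3 to 5 samples. Counted as readings, 15 of 390 were present (3.85%), and 9 of 384 without mmu-miR-547 (2.34%), against 1989 of 4110 for the other 685 assays (48.4%). The plant control ath-miR159a, which has no template in mouse RNA, was undetermined on 96 of 96 spots. Each member was spotted once per sample and the control 16 times. An undetermined assay gives no bound on its miRNA, because the deposited tables state no detection limit; the latest reading on the panel lay between 35.6 and 39.2 cycles in every sample.

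**Figure D1:**
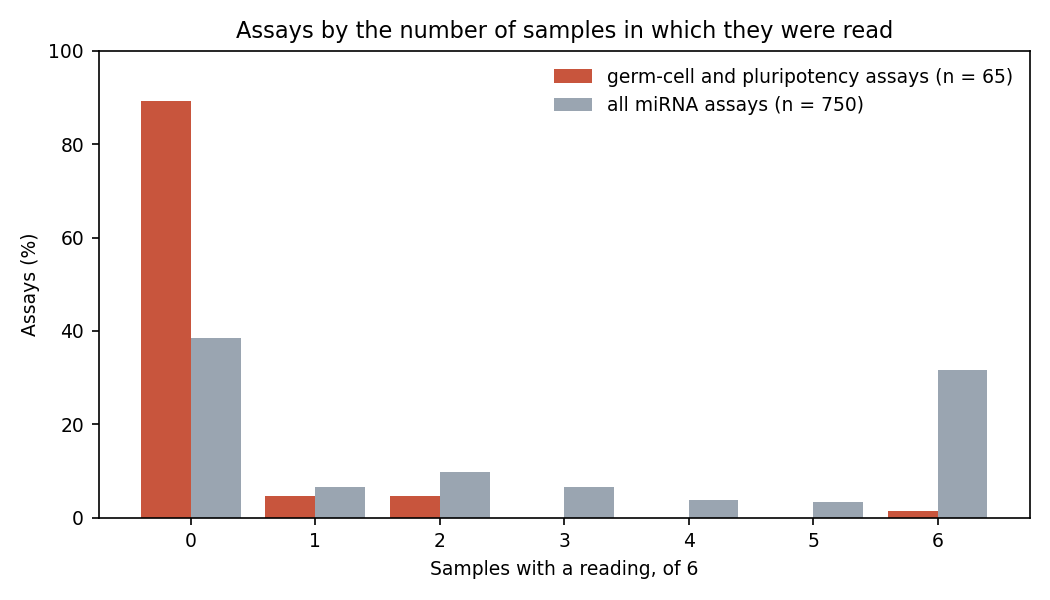
Percent of assays (vertical axis) by the number of samples, of 6, in which they were read (horizontal axis), for the 65 germ-cell and pluripotency assays and all 750 miRNA assays. The members stand at 89.2% for 0 samples, while the panel divides into 38.4% at 0 and 31.6% at 6 samples.

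The panel itself differed between the strains, and the members have to be read against that. The C57BL/6J samples had 289 to 305 assays read and 59 to 63 of the 80 endogenous control spots, and the BTBR samples 347 to 404 assays and 78 to 80 spots. Neuron-enriched miRNAs (10 assays, among them those of miR-124, miR-9 and miR-128) gave 80.0% of their possible readings in C57BL/6J and 86.7% in BTBR. Left out as under 10 cycles were hsa-miR-138 in C57BL/6J replicate 3 (9.6) and mmu-miR-138# in C57BL/6J replicates 2 and 3 (7.8 and 6.4). If counted, they would put C57BL/6J above BTBR on this list. The assay hsa-miR-124# was read in 3 C57BL/6J and 0 BTBR samples. In the other direction, hsa-miR-9 was read in 0 C57BL/6J and 2 BTBR samples (16.76 and 13.90 cycles in BTBR replicates 1 and 2). The assay of its other strand, hsa-miR-9#, was read in all 6 samples, at 13.76, 13.49 and 13.72 cycles in C57BL/6J replicates 1 to 3. The oligodendrocyte list (4 assays) gave 9 of 12 in C57BL/6J and 11 of 12 in BTBR. The lists of other cell types had more readings in BTBR, where mmu-miR-155 of the immune list was left out as under 10 cycles in all 3 samples. The share was 45.8% in C57BL/6J and 62.5% in BTBR for the immune list (8), 33.3% and 66.7% for the red blood cell list (3), and 22.2% and 61.1% for the choroid plexus and ciliated cell list (12). The members gave 3.08% and 4.62%, and all 750 assays 39.8% and 49.3%. The part of cell makeup in the members' readings was not tested. The labels do not say how samples were placed on arrays, so array and strain cannot be told apart. In bulk tissue, fewer cells of a type and less RNA per cell cannot be told apart either.

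The number of member assays read was 2, 3 and 1 in C57BL/6J replicates 1 to 3 and 4, 4 and 1 in BTBR replicates 1 to 3. The ranges overlapped, and the lowest number was the same in both strains. The mean was 2.0 ± 1.0 for C57BL/6J and 3.0 ± 1.73 for BTBR (SD, n = 3 each), a difference of 1 assay, with p = 0.6 in a two-sided exact permutation test over the samples, where 0.1 is the smallest p that 3 against 3 can give. As a share of all assays read in a sample, members made up 0.656%, 0.997% and 0.346% in C57BL/6J and 1.12%, 0.99% and 0.288% in BTBR. The difference of the means, 0.132 percentage points, was smaller than the spread within either strain (SD 0.325 and 0.447, p = 0.8 in the same exact permutation test, n = 3 each), and its sign changed without C57BL/6J replicate 3 (-0.0277) and without BTBR replicate 1 (-0.027).

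**Figure D2:**
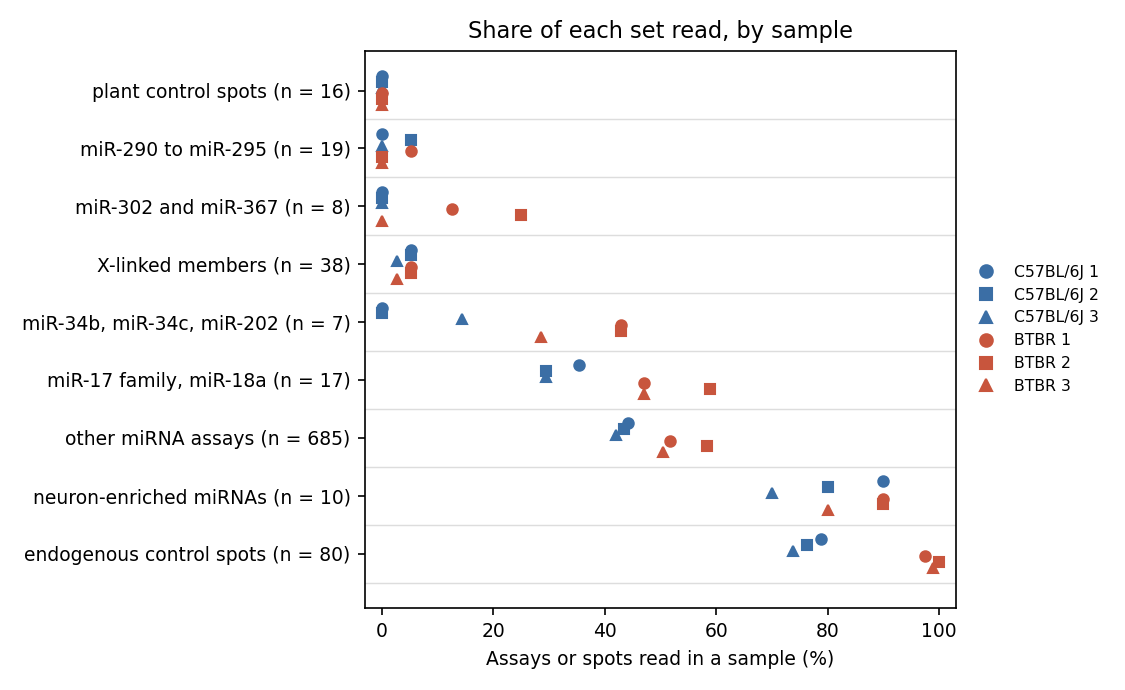
Percent of assays or control spots read (horizontal axis) in each of the 6 samples for sets of assays (rows, n is the number of assays or spots), with C57BL/6J in blue, BTBR in red and a marker shape per replicate. The plant control is at 0 in every sample and the 3 member groups stay at or under 25%, below the 42.0 to 58.4% of the other miRNA assays.

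Of the miR-290 to miR-295 cluster, 17 of 19 assays were undetermined throughout. These include every assay of miR-290, miR-291a, miR-291b, miR-292 and miR-294, among them miR-291a-3p and miR-294, which promote the rapid cell cycle of embryonic stem cells. The 2 readings of the cluster came from different assays and animals. The assay mmu-miR-295# (the sign # stands for a hairpin's minor strand) gave 17.1 cycles in C57BL/6J replicate 2 and was undetermined in the other 5 samples. That is early, since the 186 readings of other assays seen in only 1 or 2 samples had a median of 24.75 cycles with quartiles of 22.02 and 28.95. The assay of its other strand, mmu-miR-295, was undetermined in that sample as in all the others. The assay mmu-miR-293 gave 29.95 cycles in BTBR replicate 1 and nothing elsewhere, and its partners mmu-miR-293# and RNO-MIR-293 were undetermined in all 6 samples. No miRNA of this cluster was therefore read in 2 animals or by 2 assays.

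Of the miR-302 and miR-367 cluster, 6 of 8 assays were undetermined throughout: hsa-miR-302d, hsa-miR-367, mmu-miR-302a#, mmu-miR-302b#, mmu-miR-302c and mmu-miR-302c#. The assay hsa-miR-302b was undetermined in the 3 C57BL/6J samples, at 29.57 cycles in BTBR replicate 1, at 27.11 in BTBR replicate 2 and undetermined in BTBR replicate 3. The assay hsa-miR-302a was read only in BTBR replicate 2, at 26.53 cycles, so that this sample held both readings, 0.58 cycles apart. All 3 readings of the cluster were thus in BTBR and in the animals with the most panel assays read. Among all members, hsa-miR-302b was the 1 assay read in at least 2 BTBR and 0 C57BL/6J samples, 1.54% of the 65, a pattern that 10.9% of the 750 assays had. With hsa-miR-302a and mmu-miR-293, 3 members (4.62%) were read in BTBR and in 0 C57BL/6J samples, against 15.2% of the panel, and mmu-miR-295# was the 1 member (1.54%) read the other way round, against 3.73%. The pattern of at least 2 C57BL/6J and 0 BTBR samples was shown by 0 members, against 1.47% of the panel. Too few values exist for a strain test of these assays, and an undetermined value gives no direction.

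Relatives by family or by tissue were on the same panel. Of 17 assays of the miR-17 family and its cluster mate miR-18a, 11 were read at least once and 4 in all 6 samples. The 17 include opposite-strand assays, marked # or -3p, which do not have the seed of miR-17-5p shown above. The shares of the 17 are therefore not those of seed relatives alone. Of their 102 readings 42 were present (41.2%), 16 in C57BL/6J (31.4%) and 26 in BTBR (51.0%). Over all 750 assays, 44.5% of the readings were present, 39.8% in C57BL/6J and 49.3% in BTBR. The assay mmu-miR-106a was read at 19.72, 19.70 and 19.44 cycles in C57BL/6J and at 19.68, 19.25 and 19.27 in BTBR, early in both strains. The assay hsa-miR-20a was at 18.76, 18.25 and 18.98 cycles in BTBR and undetermined in all 3 C57BL/6J samples, earlier than the median reading of each BTBR sample (22.2 to 22.73 cycles). The assays hsa-miR-106b and hsa-miR-18a were likewise read in 3 BTBR and 0 C57BL/6J samples, and hsa-miR-17 in 2 and 0. The other way round, the opposite-strand assays mmu-miR-20a# and mmu-miR-17# were each read in 1 BTBR and 2 C57BL/6J samples. The pattern of 3 BTBR and 0 C57BL/6J samples was shown by 0 members, against 3.73% of the 750 assays, and that of 3 C57BL/6J and 0 BTBR samples by 0 members, against 0.40%. Of 7 assays of miR-34b, miR-34c and miR-202, which are known from spermatogenic or ciliated cells, 4 were read at least once. Of their readings, 1 of 21 was present in C57BL/6J (4.76%, against 39.8% of the panel) and 8 of 21 in BTBR (38.1%, against 49.3%). The assay mmu-miR-34b-3p was at 19.34, 18.78 and 17.81 cycles in the BTBR samples alone. The miR-34b and miR-34c assays also belong to the choroid plexus and ciliated cell list above, so their readings are counted in both places.

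The X-linked group had 38 assays, of which 35 were undetermined throughout. In the large block, from miR-743 to miR-465, 32 of 33 assays gave 0 readings: those of miR-463, miR-470, miR-471, miR-741, miR-742, miR-743a, miR-743b, miR-871, miR-878, miR-880, miR-881, miR-883a and miR-883b, and all but 1 of those of miR-465. That exception, mmu-miR-465b-5p, was at 23.38 cycles in C57BL/6J replicate 2 and at 26.57 in BTBR replicate 1, with the other 4 samples undetermined. The assay MMU-MIR-465C-5P, whose target differs by the single base given above, was undetermined in the same samples, as were mmu-miR-465, mmu-miR-465a-3p and RNO-MIR-465. The members of the miR-465 family are nearly identical, so those 2 readings cannot be assigned to a copy. Whether miR-465 RNA gave them was not tested.

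**Figure D3:**
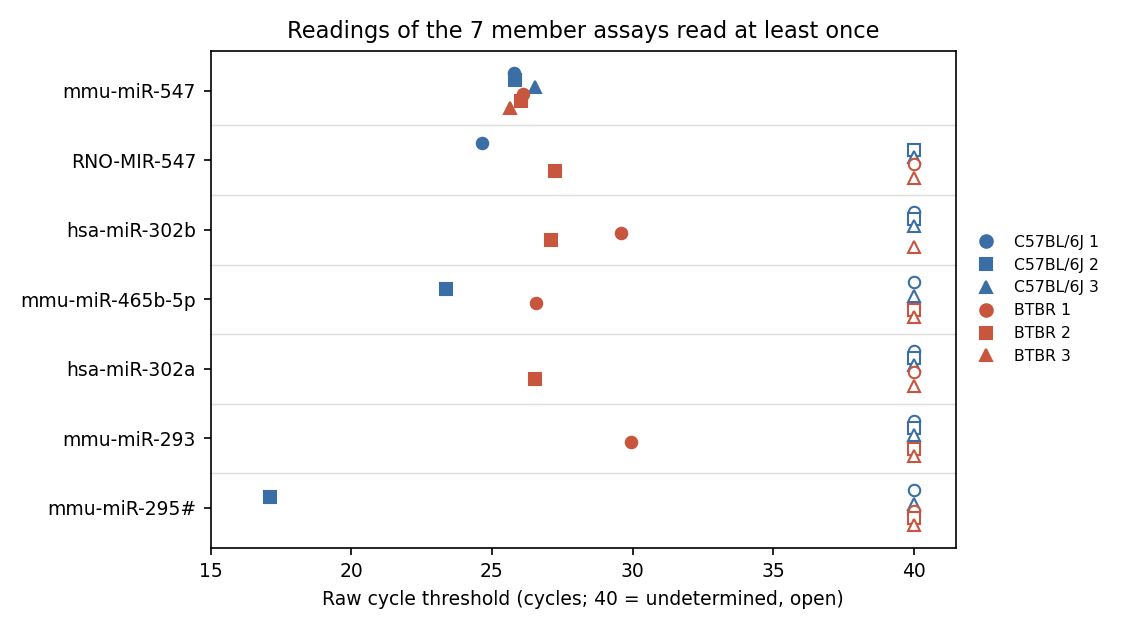
Raw cycle thresholds (horizontal axis, cycles) of the 7 member assays read at least once, with C57BL/6J in blue, BTBR in red, a marker shape per replicate and open markers at 40 for undetermined. Only mmu-miR-547 has 6 readings, between 25.65 and 26.53 cycles; the other 6 assays have 1 or 2 each, between 17.1 and 29.95.

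The consistent exception was mmu-miR-547, in the second X-linked block. It was read at 25.79, 25.81 and 26.53 cycles in C57BL/6J replicates 1 to 3 and at 26.12, 26.02 and 25.65 cycles in BTBR replicates 1 to 3. The 6 values lay within 1 cycle of each other, and the strains overlapped. Within C57BL/6J its SD was 0.424 cycles, where 252 assays read in all 3 samples had a median SD of 0.539, and within BTBR it was 0.248, where 298 such assays had a median of 0.583. On raw thresholds, animals of a strain therefore agreed on this assay at least as closely as on the typical assay of the panel: 40.1% of assays in C57BL/6J and 16.4% in BTBR had a smaller SD. It was a late reading all the same, with 67.9 to 80.4% of the assays read in a sample ahead of it.

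Its neighbours and its other assay did not share this pattern. The assays mmu-miR-201, mmu-miR-509-5p and mmu-miR-509-3p, from the hairpins on either side of miR-547, were undetermined in all 6 samples. The rat-design assay RNO-MIR-547 was read in C57BL/6J replicate 1 at 24.65 cycles and in BTBR replicate 2 at 27.25 and was undetermined in the other 4, although mmu-miR-547 was read in each of them. Those 2 values of RNO-MIR-547 lie 2.60 cycles apart, while mmu-miR-547 differed by 0.23 between the same samples. These were the only samples in which 2 assays of 1 listed miRNA were both read. The rat sequence is not in the tables used here. The assay mmu-miR-547 belongs to pool A of the panel and RNO-MIR-547 to pool B. Over all miRNA assays, 54.4% of the readings were present in pool A and 34.6% in pool B. The partner assays mmu-miR-293#, RNO-MIR-293, MMU-MIR-465C-5P and RNO-MIR-465 named above are in pool B too, while mmu-miR-465 and mmu-miR-465a-3p are in pool A. The part of the pool in these differences was not tested.

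On raw thresholds mmu-miR-547 averaged 26.04 ± 0.424 cycles over the C57BL/6J samples and 25.93 ± 0.248 over the BTBR samples (SD, n = 3 each). With each sample centred on its mean over the 237 assays read in all 6 samples (the global mean), the values were 25.22, 25.63 and 26.69 cycles in C57BL/6J and 26.19, 26.61 and 25.58 in BTBR, again overlapping. The SDs on this scale, 0.757 in C57BL/6J and 0.52 in BTBR, were larger than on raw thresholds and were not compared with the panel. The log2 change, BTBR minus C57BL/6J, was -0.28 with a standard error of 0.52 and a 95% interval from -1.55 to 0.98 (limma adjusted p = 0.71 over 270 assays). It had the opposite sign with no centring (0.11) and with readings from 10 to 28 cycles alone (0.07), and was -1.03 when centred on the endogenous controls (limma adjusted p = 0.258). The median change of the 270 assays was -0.40 on the global mean and -1.16 on the endogenous controls. The change of mmu-miR-547 lay 0.12 and 0.13 above these medians. The endogenous control mean was taken over the spots read, 59 to 63 in C57BL/6J samples and 78 to 80 in BTBR samples. The effect of these unequal spot numbers on the centring was not tested. On the global mean limma called 0 of 270 assays in either direction (0.00%), while 71 had an unadjusted p under 0.05 (26.3%). Without BTBR replicate 3 it called 55 of 258 assays, 23 higher and 32 lower in BTBR, and mmu-miR-547 was not among them (log2 change -0.56, limma adjusted p = 0.458). Without each of the other samples in turn it called 0. No other member had the 2 values per strain that the test needs.

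In the authors' quantile-normalized table, which keeps 306 assays, mmu-miR-547 was the 1 member, at 24.60, 24.92 and 25.55 cycles in C57BL/6J and 27.09, 40 and 26.30 in BTBR replicates 1 to 3. On this scale the strains no longer overlapped. With 40 as missing, the means were 25.02 and 26.69 cycles and the log2 change was -1.67 (standard error 0.48, 95% interval from -2.90 to -0.44, limma adjusted p = 0.0491), a call that 35.5% of the 231 assays tested received in the same direction and 1.30% in the other. The median change of those 231 assays was -1.13, and mmu-miR-547 lay 0.54 below it. The call was lost without C57BL/6J replicate 1, 2 or 3 or BTBR replicate 2 (limma adjusted p from 0.0685 to 0.118), and no test was possible without BTBR replicate 1 or 3. The unadjusted limma p was 0.0178 with all samples and 0.0477, 0.0507 and 0.0142 without C57BL/6J replicates 1, 2 and 3. It was 0.0154 without BTBR replicate 2, which holds no value of mmu-miR-547 here, so that leaving it out changed only the other assays. The log2 change without each of those 4 samples was -1.46, -1.62, -1.93 and -1.67, while the number of assays called on this scale went from 85 of 231 to 64 of 220, 3 of 212, 0 of 221 and 8 of 213. Without BTBR replicate 1 it was 0 of 212, and without BTBR replicate 3 it was 101 of 212, 13 higher and 88 lower. It was also lost with values centred on sample medians (log2 change -0.61, limma adjusted p = 0.493), where 2 of 231 assays were called.

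The value of 40 in BTBR replicate 2 stands for a raw reading of 26.02 cycles, the middle value of that strain. The authors' table could be rebuilt from the raw one to within 3.33e-09 cycles, with 340 assays given common quantiles and undetermined cells taking part in the ranking. In that ranking mmu-miR-547 was 201st, 210th and 223rd from the earliest in C57BL/6J, where 50, 52 and 67 of the 340 assays were undetermined, and 250th, 277th and 236th in BTBR, where 30, 12 and 20 were. The rebuilt threshold of BTBR replicate 2 was 30.57 cycles, past the latest threshold that the table keeps, 29.19, above which cells stand at 40. With that reading kept, the log2 change was -2.96 and the limma adjusted p 0.0958. The authors' deposited table, whose means keep 40 as a value, gives mmu-miR-547 as 0.0145 of the C57BL/6J level in BTBR with a p-value of 0.303 (adjusted 0.438).

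**Figure D4:**
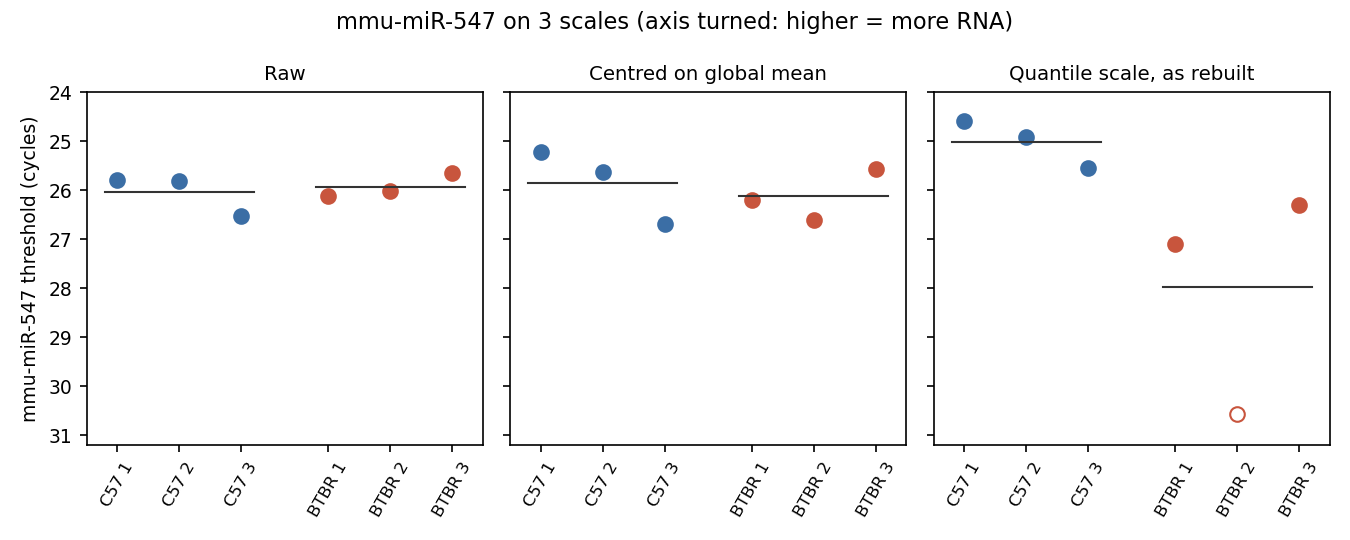
Cycle threshold of mmu-miR-547 (vertical axis, cycles, turned so that higher means more RNA) in each sample, as read (left), centred on the global mean (middle) and on the quantile scale rebuilt from the raw table (right). Lines are means of 3 samples, and the open marker is the BTBR replicate 2 value that stands at 40 in the authors' table: the strains overlap on the left and in the middle but not on the right.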

How the data were processed

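RNA was purified on columns, and 100 ng per sample was reverse transcribed, pre-amplified and run on the OpenArray panel, per the labels' protocols. The deposited raw table holds cycle thresholds, whose software and settings no label states. Thresholds carry no counting depth, so the single PCR per assay and the 3 animals a strain set the precision. The authors' normalized table holds quantile-normalized thresholds, per the file headers. The authors' deposited fold table gives a ratio of BTBR to C57BL/6J, a log2 difference, a test score, a p-value and an adjusted p-value, by methods that are not stated.

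Readings under 10 cycles (21 on the panel, 0 among members) were treated as undetermined. With R 4.3.3 and limma 3.58.1, minus the threshold was fitted on strain alone (lmFit, eBayes) for assays with at least 2 values in both strains; p-values were adjusted by Benjamini-Hochberg over all assays tested, at 0.05, and the fit was checked on simulated data. Alternatives covered detection limits, scaling, pools, a replicate block and samples left out. Named by rule were the assays read in at least 2 samples of a strain or tested (mmu-miR-547 and hsa-miR-302b) and those never read; the other 5 with a reading and the relatives were named after their values were seen. The members and lists were chosen with earlier results of these data known.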

Additional observations from a re-analysis of the deposited data

How the results depend on the processing

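The difference in member assays read per sample stayed between 0.5 and 2 with each sample left out, and was -0.333 in pool B alone. As a share of assays read, it ran from -0.0277 to 0.388 with samples left out, and was -0.103 with readings from 10 to 28 cycles only and -0.327 in pool B; its sign is not settled. On raw thresholds the member count called was 0 under all 13 alternatives, and the change of mmu-miR-547 was reversed with no centring (0.11) and with readings from 10 to 28 cycles only (0.07). On the authors' normalized values the count of 1 became 0 with 40 kept as a value, with values centred on sample medians, with a replicate block and with late readings kept (added once the data had been seen), and was 0 without each of the 4 samples whose omission left it testable; with at least 3 values in each strain no member could be tested. Replicate numbers are shared between strains, and same-numbered samples deviated with r = 0.02, 0.41 and -0.10 over 237 assays; since not every pair was positive, they were not treated as paired, although 0.41 was the highest of the 9 pairs across strains. With the replicate block, 32 assays passed in place of 85, and mmu-miR-547 was at -1.62 (limma adjusted p = 0.156). The paired difference in members read was 1, and in their share 0.132.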
